A study of Mus musculus with 20 samples.

Results

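miR-34a-5p and miR-34c-5p are the 5p strands of a pair of microRNA (miRNA) hairpins of the miR-34 family, and they were followed here through 20 mouse small RNA libraries. Both were chosen by name, as sequence tags of 18 to 26 nt that match the listed arms of the annotated hairpins exactly. They are 2 of the 1212 miRNA arms with a read, and 2 of the 372 arms that reached at least 5 reads per 1000000 hairpin reads (CPM) in at least 2 libraries and were tested. The working label ties both to p53, and no measurement of p53 was used here.

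The study set dendritic cells against macrophages, wild type against miR-155 knockout, and unstimulated against stimulated cultures, with 1 library for each of the 20 combinations. Wild-type mice were C57BL/6 and knockout mice carried the B6.Cg-Mir155tm1.1Rsky/J allele, which removes miR-155 from the germ line and therefore from both cell types. Bone marrow from femur and tibia of mice aged 8 to 12 weeks was grown with GM-CSF hybridoma supernatant for dendritic cells or M-CSF hybridoma supernatant for macrophages. The stimuli were none, LPS, oxLDL, eLDL and LDL (native, oxidised and a further modified form of low density lipoprotein, of which the labels do not spell out eLDL). Dendritic cells received 200 ng/ml LPS overnight at day 8 to 9 of culture. For the lipoproteins, and for macrophages as a whole, the labels state neither dose nor time. The labels do not say whether libraries came from separate mice, so p-values measure the spread between these libraries, which may be partly technical.

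The miR-34 family is the best known group of miRNAs switched on by the tumour suppressor p53, which binds near the miR-34a gene and near the shared miR-34b and miR-34c gene and raises their transcription after DNA damage. A miRNA finds its targets mainly through its seed, bases 2 to 8 from the 5′ end, and miR-34 targets include mRNAs for cell cycle, survival and metabolic proteins such as the deacetylase SIRT1. miR-34a is made in many tissues, whereas miR-34b, miR-34c and the seed-sharing miR-449 miRNAs are best known from multiciliated epithelium and testis. In myeloid cells, miR-34a has been described in macrophage and dendritic cell maturation.

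The listed mature sequences that share the seed are shown first, because that seed defines the family that is counted below. Seed bases are in capitals, each line runs 5′ to 3′, and the sequences are those of RefSeq for GRCm38.p6.
miR-34a-5p: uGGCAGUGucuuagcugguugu
miR-34b-5p: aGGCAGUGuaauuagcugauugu
miR-449a-5p: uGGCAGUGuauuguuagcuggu
miR-449c-5p: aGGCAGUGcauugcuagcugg
Of the 1738 mature mouse miRNAs in that table, these 4 hold GGCAGUG at bases 2 to 8. It lists no mature miR-34c-5p and no miR-449b arm, so these 4 are not the whole family counted below. The most abundant tag counted for miR-34c-5p has the same seed, read as GGCAGTG in the DNA letters of the files. Aligned from the 5′ end without gaps, miR-34a-5p has the same base as miR-449a-5p at 15 of 22 positions, as miR-449c-5p at 12 of 21 and as miR-34b-5p at 11 of 22. These counts do not rank likeness. The shared stretch uagcug lies further from the seed in the others than in miR-34a-5p, so shifted bases are compared. Members of the family are told apart by bases outside the seed.

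The opposite arms do not carry this seed. The arms that lie opposite the miR-34 5p strands are shown for their own seeds, again in capitals.
miR-34a-3p: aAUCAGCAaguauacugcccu
miR-34b-3p: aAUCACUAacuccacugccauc
miR-34c-3p: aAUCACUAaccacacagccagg
The miR-34b and miR-34c 3p arms have the seed AUCACUA in common, and that of miR-34a-3p is AUCAGCA.

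The genes lie apart in the genome. In GRCm38, Mir34a is at chr4:150068454-150068555 on the + strand, with the mature miR-34a-5p at chr4:150068473-150068494, and its last 17 nt overlap an exon of Gm37795, a transcript of unsettled class in GENCODE M21. Mir34c is at chr9:51103034-51103110 and Mir34b at chr9:51103562-51103645, both on the - strand, 451 nt apart, in an intron of Btg4, which is transcribed from the other strand. Mir449a, Mir449b and Mir449c lie between chr13:113035983-113036091 and chr13:113037534-113037624 in an intron of Cdc20b.

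In units of 1000000 reads, libraries held 10.3 to 22.8, of which 5.13 to 11.8 matched miRNA hairpins, and 3 reads corresponded to 0.254 to 0.584 CPM. The knockout was seen in miR-155-5p itself. In dendritic cells it was 0.307 to 0.782 CPM (2 to 7 reads) in knockout libraries against 128 to 9521 CPM in wild-type libraries. In macrophages it was 3.92 to 5.87 CPM (33 to 45 reads) in knockout libraries against 5324 to 39697 CPM in wild-type libraries. The myeloid miRNAs miR-223-3p, miR-142-3p and miR-142-5p summed to 16653 to 32291 CPM. Most of that was miR-142-5p, at 13706 to 29846 CPM, and changes of these markers are given below. No miRNA used here separates dendritic cells from macrophages by definition. A pair of macrophage libraries, wild type with LDL and unstimulated knockout, stood apart in read length, with 0.617% and 0.613% of hairpin reads at 18 and 19 nt against 1.38% to 2.08% in the other 8 macrophage libraries. Both enter several comparisons below, and results that change without them are given with that value.

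Across the 20 libraries miR-34a-5p was the abundant member, at 211 to 829 CPM from 1509 to 6529 reads, and ranked between 60 and 99 among all arms. miR-34c-5p ran from 8.50 to 55.2 CPM, from 68 to 423 reads, and ranked between 147 and 265. Intervals on single libraries are exact 95% Poisson intervals and cover counting error only. In these bulk cultures a lower share of cells that make a miRNA and less of it per cell cannot be told apart.

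In wild-type dendritic cells miR-34a-5p stood at 296 CPM unstimulated, 234 with LPS, 253 with oxLDL, 294 with eLDL and 268 with LDL. In knockout dendritic cells, in the same order, it stood at 324, 250, 288, 276 and 277 CPM. All 10 dendritic cell libraries therefore lay within a narrow band, and the genotypes overlapped. In wild-type macrophages it was 211 CPM unstimulated, 380 with LPS, 463 with oxLDL, 492 with eLDL and 392 with LDL. In knockout macrophages it was 401 CPM unstimulated, 829 with LPS, 687 with oxLDL, 577 with eLDL and 621 with LDL. Within each macrophage genotype the unstimulated library was the lowest of the 5, and each knockout library exceeded its wild-type counterpart.

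miR-34c-5p followed another order. In wild-type dendritic cells it was 33.8 CPM unstimulated, 29.2 with LPS, 32.2 with oxLDL, 43.0 with eLDL and 39.6 with LDL. In knockout dendritic cells it was 23.1, 16.4, 15.1, 22.3 and 13.7 CPM in that order, so the lowest wild-type library lay above the highest knockout library. In wild-type macrophages it was 19.7 CPM unstimulated, 8.50 with LPS, 22.1 with oxLDL, 20.1 with eLDL and 22.9 with LDL. In knockout macrophages it was 38.3, 40.5, 55.2, 53.9 and 50.7 CPM, and here every knockout library lay above every wild-type library. The share of all arms that separate in this way was not counted, neither here nor for the ranges without overlap given below.

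**Figure D1:**
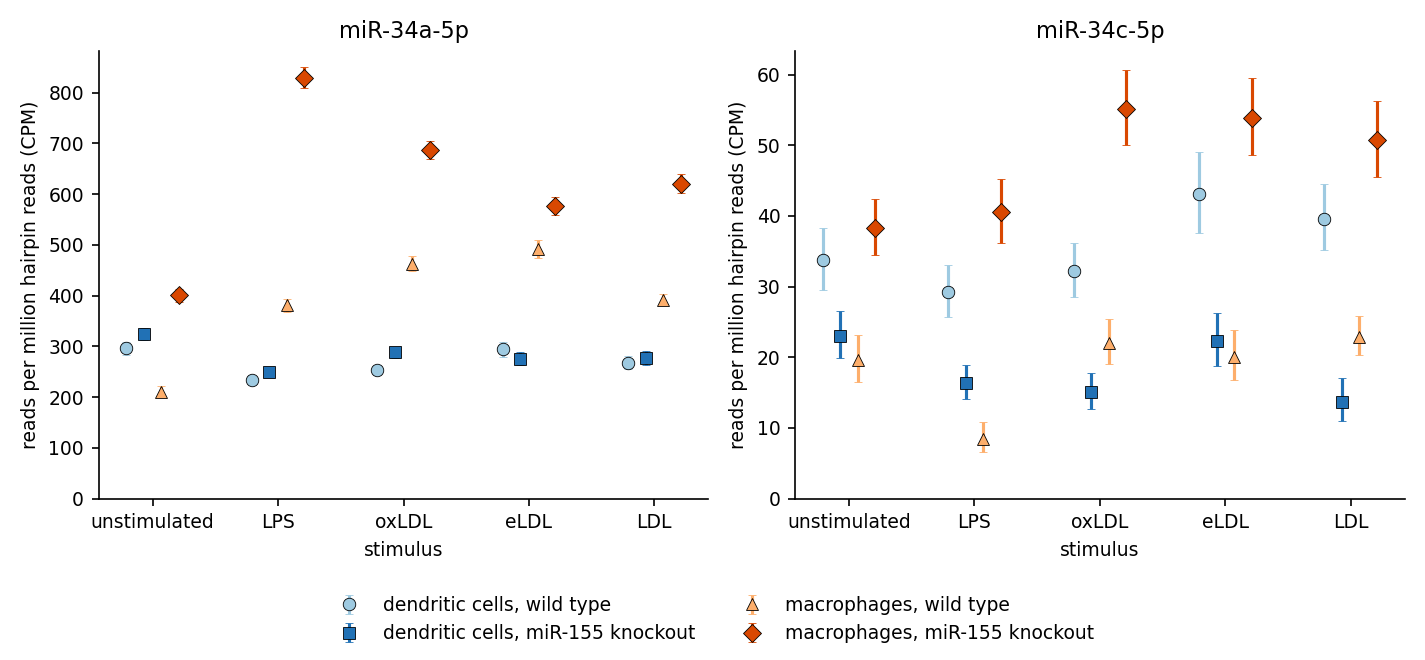
Levels of miR-34a-5p (left) and miR-34c-5p (right) in each of the 20 libraries, in CPM on linear axes from 0, by stimulus, with colour and marker for cell type and genotype and bars for the exact 95% Poisson interval of the reads. miR-34a-5p was highest in the knockout macrophages (401 to 829 CPM), and miR-34c-5p was high in knockout macrophages and wild-type dendritic cells and low in the other cultures.

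The order of the 4 cultures differed between the members. By median over the 5 stimulus states, miR-34a-5p was ordered from wild-type dendritic cells (268 CPM) and knockout dendritic cells (277 CPM), whose ranges overlapped, to wild-type macrophages (392 CPM) and knockout macrophages (621 CPM), whose ranges overlapped too. By median, miR-34c-5p was 16.4 CPM in knockout dendritic cells and 20.1 CPM in wild-type macrophages, which overlapped, then 33.8 CPM in wild-type dendritic cells and 50.7 CPM in knockout macrophages, which overlapped as well. Across the 20 libraries the correlation of log2(CPM + 1) between the members was r = 0.45, within the 10 macrophage libraries r = 0.62 and within the 10 dendritic cell libraries r = -0.00040, given as a description over libraries that share cultures.

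Differences were tested by edgeR's quasi-likelihood test in 1 fit of all 20 libraries, with Benjamini-Hochberg adjustment over the 372 arms. Because each condition has 1 library, the spread comes from how far both genotypes depart from parallel responses to the stimuli. Genotypes and cell types were thus compared over stimulus states, not over known replicates. If libraries of 1 genotype and cell type came from the same mice, those p-values and pair counts do not cover variation between mice. Fold changes from this fit are relative to the bulk of arms, since libraries were scaled by trimmed mean (TMM). A call means an adjusted p under 0.05.

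**Figure D2:**
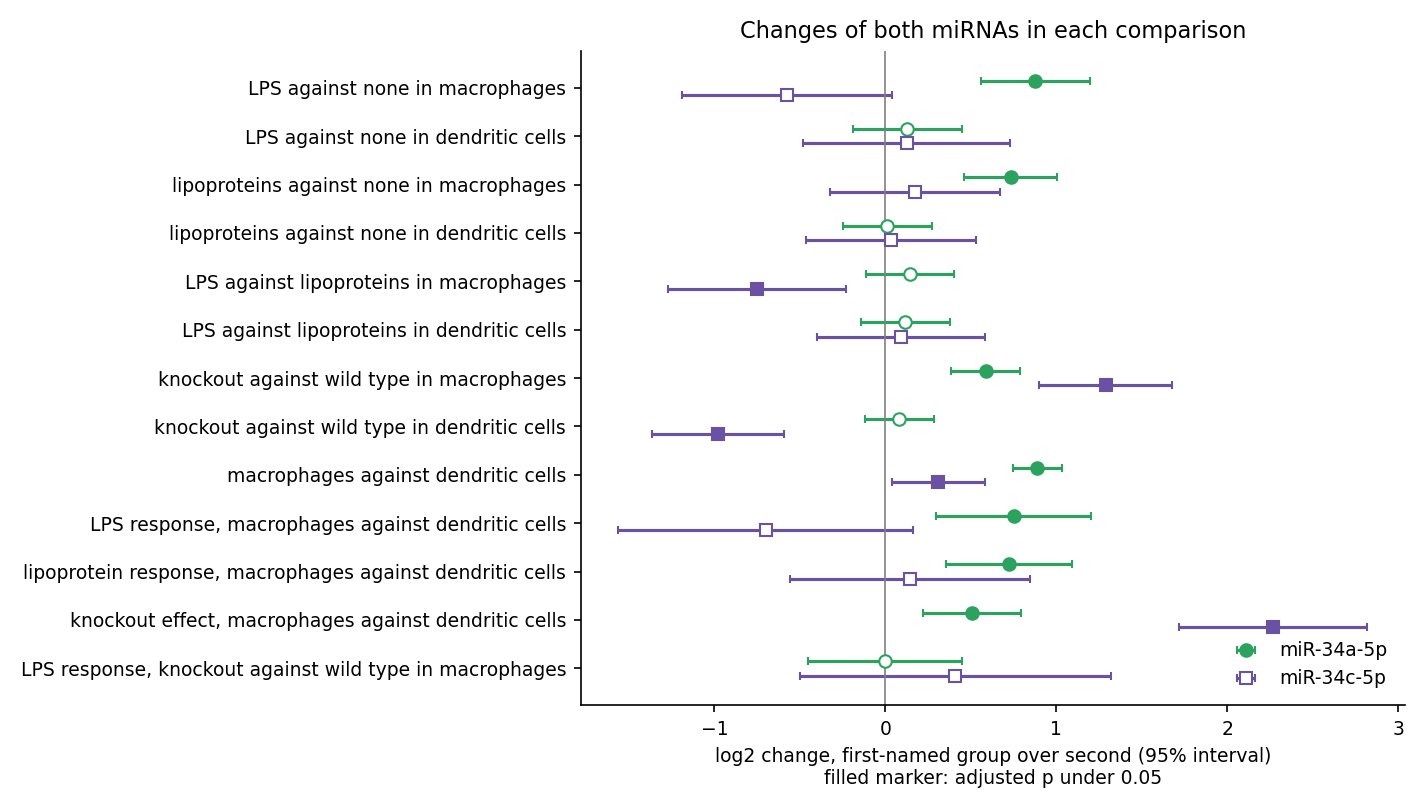
Log2 change of miR-34a-5p (circles) and miR-34c-5p (squares) in 13 comparisons, the first-named group over the second, with 95% intervals, and filled markers where the adjusted p was under 0.05. The bottom row is labelled for macrophages, but its genotype term is shared by both cell types. miR-34a-5p was higher with LPS and with lipoproteins in macrophages, by 0.88 and 0.73, and not called in dendritic cells, while miR-34c-5p moved with genotype, by 1.29 in macrophages and -0.98 in dendritic cells.

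The first question was how each member responded to LPS, the bacterial endotoxin that drives macrophages and dendritic cells into an inflammatory state through TLR4. In macrophages LPS raised miR-34a-5p by 0.88 ± 0.15 on the log2 scale (SE; 95% interval 0.56 to 1.20), or 1.84-fold, with an adjusted p of 0.00098 by edgeR. By CPM the ratio was 1.81 in the wild-type pair and 2.07 in the knockout pair. The share of all arms called in this comparison was 19.9%, and miR-34a-5p ranked 14 of 372 by p. miR-34c-5p had a log2 change of -0.58 ± 0.29 with an edgeR adjusted p of 0.19. Its pairs disagreed: the ratio was 0.432 (95% interval 0.319 to 0.581) in wild-type macrophages and 1.06 (0.907 to 1.23) in knockout macrophages. The wild-type LPS library held the 68 reads that are its lowest count, and without that library the change was 0.05.

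In dendritic cells LPS gave neither member a call, where 23.7% of arms were called. miR-34a-5p changed by 0.13 ± 0.15 (95% interval -0.19 to 0.45, edgeR adjusted p = 0.63), although its CPM was lower in both pairs, to 0.789 and 0.770 of the unstimulated level. The sign depends on the scaling: with total hairpin reads in place of TMM the change was -0.36 with an adjusted p of 0.11, and the median over all arms shifted by -0.47 as well. miR-34c-5p changed by 0.12 ± 0.28 (95% interval -0.48 to 0.73, adjusted p = 0.83), and by -0.36 with total hairpin reads.

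The LPS response of miR-34a-5p was larger in macrophages than in dendritic cells by 0.75 ± 0.21 (95% interval 0.30 to 1.20, edgeR adjusted p = 0.031), in a comparison that called 14% of arms. This call was lost without any 1 of 6 libraries, namely all 4 LPS or unstimulated dendritic cell libraries, the knockout LPS macrophages and the unstimulated wild-type macrophages, where the difference stayed between 0.64 and 1.03 and the adjusted p reached 0.17. With the scaling of all libraries kept, the same 6 fits lost it. miR-34c-5p had a difference of -0.70 ± 0.40 that was not called (adjusted p = 0.30).

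Whether the knockout altered the LPS response was asked with a fit that lets stimuli act differently in the genotypes, with that term shared by both cell types and 4 residual degrees of freedom. No arm was called (0%) by edgeR or DESeq2, with 23 arms at an unadjusted p under 0.05 by edgeR. The difference was -0.00098 ± 0.20 for miR-34a-5p (95% interval -0.45 to 0.45) and 0.41 ± 0.40 for miR-34c-5p (95% interval -0.50 to 1.32). A term for macrophages alone, added after the data were seen, set LPS against all other stimulus states, not against unstimulated cells only. By that term the genotype difference for miR-34a-5p was 0.43, with an edgeR adjusted p of 0.72. Against unstimulated cells, the TMM-scaled log2 ratio with LPS was 0.81 in the wild-type and 0.94 in the knockout macrophage pair. The intervals of the shared term are wide against the LPS changes themselves, so the design could not resolve a genotype difference of moderate size.

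The second question was the response to lipoproteins, which macrophages take up through scavenger and LDL receptors on their way to foam cells. In macrophages the mean of the oxLDL, eLDL and LDL effects on miR-34a-5p was 0.73 ± 0.13 (95% interval 0.46 to 1.01), or 1.66-fold, with an edgeR adjusted p of 0.0016. All 8 stimulated macrophage libraries, LPS included, exceeded their unstimulated counterpart, by ratios of 1.44 to 2.33. The comparison called 12.6% of arms, and miR-34a-5p ranked 10 of 372. Everything here is measured against 2 unstimulated macrophage libraries. Without the wild-type one (211 CPM), the change was 0.67 with an adjusted p of 0.10.

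Each lipoprotein was also tested on its own in macrophages. oxLDL changed miR-34a-5p by 0.80 ± 0.15 (edgeR adjusted p = 0.0035), in a comparison that called 10.2% of arms. eLDL changed it by 0.73 ± 0.15 (adjusted p = 0.0096, 9.14% of arms called) and native LDL by 0.67 ± 0.15 (adjusted p = 0.015, 8.06% called). The 3 estimates share the same unstimulated libraries, their intervals overlapped, and differences between lipoproteins were not tested. Without the unstimulated wild-type library the adjusted p was 0.13 for oxLDL, 0.17 for eLDL and 0.25 for LDL, at changes of 0.67, 0.70 and 0.64. The calls were also lost without the wild-type library of the same lipoprotein, at changes of 0.69, 0.50 and 0.62, and that of LDL without the knockout LDL library (0.75, adjusted p = 0.056). Without both short-read-poor libraries the LDL change was 0.76 with an adjusted p of 0.19.

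miR-34c-5p gave no call with lipoproteins in macrophages. Its change was 0.17 ± 0.23 (95% interval -0.33 to 0.67, adjusted p = 0.70), and the ratio to unstimulated cells was 1.02 to 1.17 in the 3 wild-type pairs and 1.32 to 1.44 in the 3 knockout pairs. Without both libraries that stood apart in read length, one of which is the unstimulated knockout library, the change was -0.28 with an adjusted p of 0.75.

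In dendritic cells the lipoproteins moved few arms, 0.806% of those tested, and neither member. miR-34a-5p changed by 0.01 ± 0.12 (95% interval -0.25 to 0.27) and miR-34c-5p by 0.03 ± 0.23 (95% interval -0.47 to 0.53), both with an adjusted p of 1. The lipoprotein response of miR-34a-5p was larger in macrophages than in dendritic cells by 0.72 ± 0.17 (95% interval 0.35 to 1.09, edgeR adjusted p = 0.026), where 6.99% of arms were called. The difference lay between 0.71 and 1.04 when any 1 library was left out, but 8 of those 20 fits lost the call, with the highest adjusted p, 0.23, without the unstimulated wild-type macrophages. With the scaling kept, 6 lost it, at differences of 0.59 to 0.86 over the 20 fits. For miR-34c-5p the difference was 0.14 ± 0.33 (adjusted p = 0.91).

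LPS and lipoproteins were then set against each other. In macrophages miR-34a-5p differed by 0.14 ± 0.12 (95% interval -0.11 to 0.40, edgeR adjusted p = 0.49), in a comparison that called 15.9% of arms. The sign of this value rested on single libraries, since it was -0.13 without the knockout LPS library and 0.59 (adjusted p = 0.025) without the wild-type LPS library. miR-34c-5p was lower with LPS than with lipoproteins by -0.75 ± 0.24 (adjusted p = 0.049). That call was lost in 19 of 20 fits that left out 1 library, and in 13 of 20 with the scaling kept. It was -0.11 with an adjusted p of 0.90 without the wild-type LPS macrophages. In dendritic cells, where 25.3% of arms were called, the differences were 0.12 ± 0.12 for miR-34a-5p (adjusted p = 0.56) and 0.09 ± 0.23 for miR-34c-5p (adjusted p = 0.83).

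The third question was how loss of miR-155, an inflammation-induced miRNA, went with the miR-34 members. In macrophages both were higher in the knockout, in a comparison that called 24.5% of arms. miR-34a-5p was higher by 0.59 ± 0.09 (95% interval 0.38 to 0.79), or 1.502-fold, with an edgeR adjusted p of 0.00028. miR-34c-5p was higher by 1.29 ± 0.18 (95% interval 0.90 to 1.68), or 2.45-fold, with an adjusted p of 6.8e-05. The knockout library was the higher one in 5 of 5 stimulus pairs for each, by CPM ratios of 1.17 to 2.18 for miR-34a-5p and 1.95 to 4.77 for miR-34c-5p. The largest ratio of each came from the LPS pair.

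In dendritic cells the members parted. miR-34c-5p was lower in the knockout by -0.98 ± 0.18 (95% interval -1.37 to -0.59), at 0.507 of the wild-type level, with an edgeR adjusted p of 0.0026. It was lower in all 5 pairs, with ratios of 0.347 to 0.683. Of all arms, 9.68% were called here, and miR-34c-5p ranked 12 of 372 by p. miR-34a-5p differed by 0.08 ± 0.09 (95% interval -0.12 to 0.28, adjusted p = 0.69), with ratios of 0.938 to 1.14. The macrophage estimate of 0.59 lay outside this interval of the main fit. Fits without 1 library gave 0.10 to 0.21 in dendritic cells and 0.38 to 0.70 in macrophages. Whether the cell types differ rests on the direct test that follows, which most alternatives did not keep.

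The knockout effect on miR-34c-5p thus had opposite signs in the cell types, and the difference was 2.27 ± 0.26 (95% interval 1.72 to 2.82, edgeR adjusted p = 1.6e-05). With 15.1% of arms called in this comparison, miR-34c-5p ranked 8 of 372. In each of 29 alternative settings, left-out libraries included, the difference lay between 1.94 and 2.45 and was called. For miR-34a-5p the difference was 0.51 ± 0.13 (95% interval 0.22 to 0.79, adjusted p = 0.018), but only 5 of its 29 alternatives kept the call. Among fits without 1 library it ranged from 0.26, without the wild-type LPS macrophages, to 0.50, and 19 of 20 lost the call. In those fits the scaling was computed anew, and the median over all arms, 0.06 with all libraries, lay between -0.080 and 0.027. With the scaling of the 20-library fit kept, an alternative added after the data were seen, the difference lay between 0.42 and 0.60. Of those 20 fits 2 lost the call, without the wild-type or the knockout LPS macrophages, at an adjusted p of up to 0.052.

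**Figure D3:**
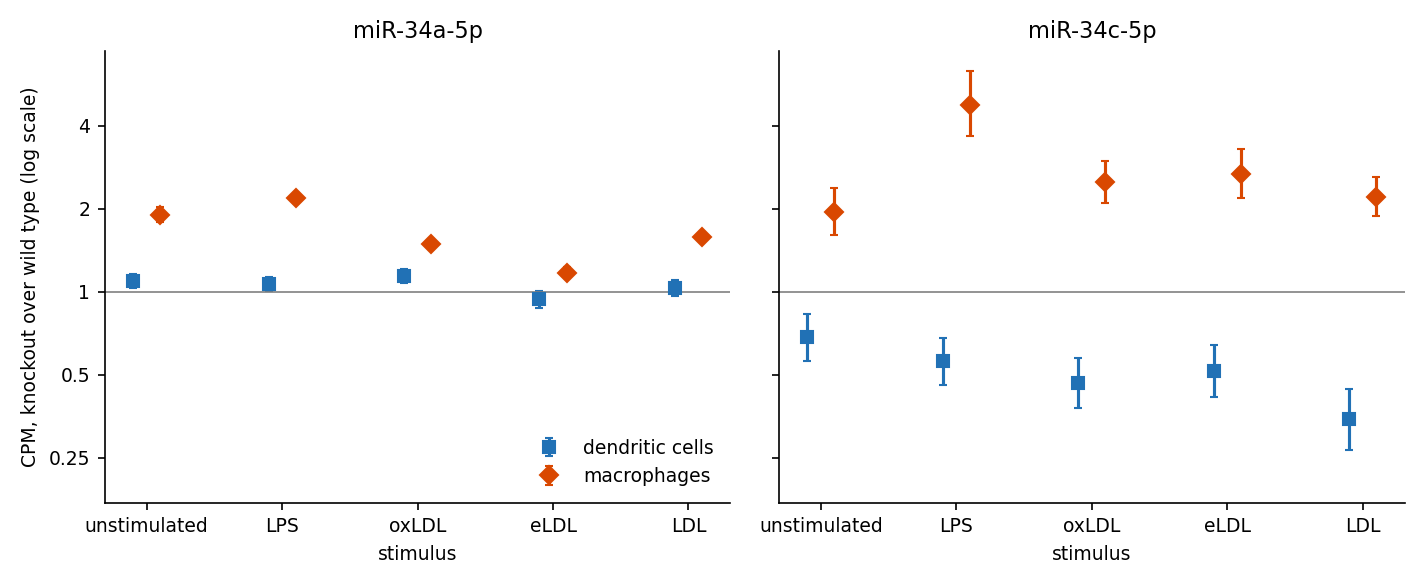
Ratio of knockout to wild-type CPM for miR-34a-5p (left) and miR-34c-5p (right) at each stimulus, on a log axis, with exact 95% intervals that cover counting error only; the line marks a ratio of 1. For miR-34c-5p all 5 macrophage ratios lie above 1 (1.95 to 4.77) and all 5 dendritic cell ratios below it (0.347 to 0.683).

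A stromal marker, miR-143-3p, moved with genotype in the same libraries. The summed CPM of miR-143-3p, miR-145a-5p, miR-199a-3p, miR-199a-5p and miR-214-3p was 68.5 to 282 in wild-type and 21.9 to 85.3 in knockout dendritic cells, and 26.1 to 281 in wild-type and 0.847 to 26.6 in knockout macrophages. In dendritic cells 5 of these 5 markers had reads in wild type and 4 of 5 in the knockout, where miR-145a-5p was at 0, and in knockout macrophages miR-214-3p was at 0. By edgeR miR-143-3p was lower in the knockout of both cell types, by -4.21 in dendritic cells (adjusted p = 0.020) and -4.04 in macrophages (adjusted p = 0.013). miR-199a-3p, the only other stromal marker tested and counted with miR-199b-3p, which shares its most abundant tag, was not called in either, at -0.34 and -1.64 (adjusted p = 0.71 and 0.080). Epithelial markers, 8 in all, summed to 234 to 280 CPM in wild-type and 162 to 181 in knockout dendritic cells, and to 207 to 274 and 191 to 238 CPM in macrophages. In macrophages the sum holds calls in both directions, with miR-429-3p (-1.37), miR-200b-3p (-1.07) and miR-200a-3p (-0.81) lower in the knockout and miR-200c-3p (0.40) higher. In knockout dendritic cells miR-200b-3p (-1.24) and miR-429-3p (-0.81) were lower. Of the 8, miR-205-5p was at 0 in every dendritic cell library. The myeloid marker miR-223-3p was called lower in knockout macrophages (-0.75), and with LPS in macrophages (-1.15) and in dendritic cells (-0.84). The part of stromal, epithelial or myeloid cells in the miR-34 differences was not tested.

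The fourth question was cell type. Averaged over genotypes and stimuli, miR-34a-5p was higher in macrophages by 0.89 ± 0.07 (95% interval 0.74 to 1.03), or 1.85-fold, with an edgeR adjusted p of 8.2e-09. Most arms differed in this comparison, 80.1%, and miR-34a-5p ranked 81 of 372. Of 10 matched pairs 9 were higher in macrophages by CPM, and the exception was unstimulated wild type, at a ratio of 0.712 (95% interval 0.666 to 0.761). miR-34c-5p was higher in macrophages by 0.31 ± 0.13 (adjusted p = 0.036), a mean over 2 opposite patterns: the macrophage library was lower in all 5 wild-type pairs (ratios 0.291 to 0.687) and higher in all 5 knockout pairs (1.66 to 3.69). That small mean was called in 6 of 29 alternatives and was 0.01 with upper-quartile scaling.

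Other markers differed between the cell types as well. Of the myeloid markers, miR-223-3p was called lower in macrophages (-0.45), and miR-142-3p (1.10) and miR-142-5p (0.55) were called higher. Among epithelial markers miR-200c-3p (2.07) and miR-141-3p (1.41) were called higher, and miR-429-3p (-0.95), miR-203-3p (-0.50), miR-200b-3p (-0.48) and miR-200a-3p (-0.45) lower. The stromal marker miR-199a-3p, counted with miR-199b-3p, was called lower (-3.90). For miR-143-3p the ranges overlapped, at 1.84 to 150 CPM in dendritic cells and 0.635 to 266 CPM in macrophages. The lymphoid marker miR-150-5p was 6.15 to 23.99 CPM in dendritic cells and 63.2 to 167 CPM in macrophages. Of the neuronal markers, miR-124a-3p was at 0 in every dendritic cell library and at most 1.64 CPM in macrophages, and miR-9-5p, also known from activated myeloid cells, was 4.28 to 18.7 CPM in dendritic cells and 5057 to 18362 CPM in macrophages. Erythroid markers summed to at most 8.76 CPM in any library. The part of other cells in the cell type difference was not tested.

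The remaining arms of the family were scarce. Of its 12 arms, 5 passed the filter on low values: both members, miR-34a-3p, miR-449a-5p and miR-449c-5p. miR-34b-3p, made from the transcript that also holds miR-34c, did not pass and was described only. Its reads summed to 89 in wild-type and 32 in knockout dendritic cells, and to 20 in wild-type and 88 in knockout macrophages. In macrophages its levels were 0 to 0.935 CPM in wild type and 1.38 to 3.19 CPM in the knockout, without overlap, and in dendritic cells 0.902 to 4.10 and 0 to 1.68 CPM, with overlap. miR-34c-3p summed to 19, 3, 16 and 35 reads over the 5 libraries of each culture in the same order, and miR-34b-5p to 18, 13, 18 and 18. Thus miR-34b-3p had the highest sums in the same 2 cultures as its neighbour miR-34c-5p, at counts of 0 to 30 a library.

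The miR-449 arms with the miR-34 seed were macrophage-high. miR-449a-5p was 3.82 to 7.01 CPM in the 10 dendritic cell libraries (median 4.89) and 11.5 to 30.5 CPM in the 10 macrophage libraries (median 22.7), without overlap. The fit gave a difference of 2.16 ± 0.15 with an edgeR adjusted p of 4.5e-09. In knockout against wild-type macrophages it differed by 0.52 ± 0.20 (adjusted p = 0.080), with the knockout higher in 4 of 5 pairs. miR-449c-5p was 0 to 4.17 CPM in dendritic cells and 3.33 to 11.6 CPM in macrophages, with overlap, and the fitted difference was 3.74 ± 0.40. Since no dendritic cell library reached 5 CPM, this arm passed the filter through macrophage libraries alone. A test of that difference is therefore not independent of the filter, and its p-value is not given.

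miR-449c-5p had 0 reads in both LPS dendritic cell libraries and 46 in the unstimulated pair. Against a floor of 3 reads over the group this is at least 19.5-fold lower with LPS, and the edgeR fit called the fall (adjusted p = 0.0018). Low counts were not particular to LPS. Wild-type and knockout dendritic cells held 2 and 1 reads with LDL, 13 and 10 with oxLDL, and 12 and 8 with eLDL. For miR-449b-5p no read was counted, and miR-449b-3p and miR-449c-3p had at most 2 reads in a library.

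Together the arms with the miR-34 seed made 268 to 356 CPM in dendritic cells and 245 to 905 CPM in macrophages. miR-34a-5p supplied 84.6% to 93.2% of those reads. miR-34c-5p supplied 9.92% to 12.7% in wild-type and 4.63% to 7.35% in knockout dendritic cells, without overlap, and 2.07% to 8.02% in wild-type and 4.48% to 8.20% in knockout macrophages. The lowest share, 2.07%, was again that of wild-type macrophages with LPS.

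Within miR-34a-5p the reads were spread over a few lengths, which are shown because their shares differed between cell types. Letters are DNA as in the files, with the seed in capitals.
22 nt form: tGGCAGTGtcttagctggttgt
19 nt form: tGGCAGTGtcttagctggt
Of 61519 reads in 28 different tags, 60.9% were the 22 nt form, 27.4% were 23 nt, 6.26% were 21 nt and 3.48% the 19 nt form, and 98.8% began at the main start, so the seed was nearly always the same. The 22 nt share differed by -5.07 percentage points on average, macrophages minus dendritic cells (SD 4.85, n = 10 matched pairs), and was lower in macrophages in 8 of 10 pairs, with an exact two-sided paired permutation p of 0.0078 (0.016 after adjustment over the 2 members). Since shares add to the whole, this is not separate from the 19 nt form, whose mean share was 0.391% in dendritic cells and 5.24% in macrophages. For miR-34c-5p the leading form of 23 nt made 81.7% to 100% of its reads in dendritic cells and 90.1% to 97.0% in macrophages, and an exact paired permutation test gave p = 0.12.

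The 19 nt form was seen mainly in macrophages. It made 0% to 0.871% of miR-34a-5p reads in the dendritic cells and 5.56% to 7.64% in 8 of the 10 macrophage libraries. The other two, wild type with LDL at 0.0648% and unstimulated knockout at 0.554%, are the libraries that held few 18 and 19 nt reads of any miRNA. Their 22 nt shares, 63.8% and 65.8%, lay within the dendritic cell range of 58.2% to 68.0%. Dendritic cell libraries had 1.13% to 1.84% of all hairpin reads at those lengths, close to the 1.38% to 2.08% of the 8 macrophage libraries. Without both unusual libraries the 22 nt share differed by -6.29 points over 8 pairs (exact paired permutation p = 0.016). No test was made of the 19 nt share, which was noticed in the data.

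The other arm, miR-34a-3p, gave 689 reads in all, 0.365% to 1.96% of 5p and 3p reads together. Its level was 1.19 to 4.02 CPM in dendritic cells and 2.91 to 10.3 CPM in macrophages, and the fitted difference was 1.43 ± 0.31. This arm too passed the filter of 5 CPM through macrophage libraries alone, so a test of the difference is not independent of the filter and its p-value is not given. By its start, 366 reads began 1 base before the annotated 3p arm and 317 at it, so about as many reads carried the shifted seed as the annotated one.

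One more product of the miR-34a hairpin outnumbered the 3p arm. The hairpin is shown with its mature arms in capitals, followed by the most abundant tag from between them.
mir-34a hairpin: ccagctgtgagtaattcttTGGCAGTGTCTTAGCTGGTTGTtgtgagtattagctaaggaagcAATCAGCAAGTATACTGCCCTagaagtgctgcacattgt
loop tag: gtgagtattagctaaggaag
This 20 nt tag spans positions 43 to 62 of the 102 nt hairpin. It begins right after the 23 nt form of miR-34a-5p ends, at position 42, and stops 1 base short of the annotated 3p start at position 64, so that its last base directly precedes the more common 3p start. It made 92.9% of 3136 loop reads, and there were 455 loop reads for every 100 reads of miR-34a-3p. Of 77 hairpins with counted loop reads, miR-34a ranked 2, behind miR-16-1 with 111698 reads and ahead of miR-30e with 2185, where the median loop had 11.

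The loop followed its own pattern over libraries. It ran at 2.91 to 10.9 reads per 100 of miR-34a-5p in dendritic cells (median 4.18) and 1.08 to 8.97 in macrophages (median 4.47). The lowest value, from 33 loop reads, was wild-type macrophages with LPS, and the knockout library with LPS had 5.33. By CPM the loop stood at 24.5 to 44.2 in knockout and 4.12 to 21.97 in wild-type macrophages, without overlap, and at 8.04 to 18.4 in knockout and 9.15 to 27.6 in wild-type dendritic cells. The knockout was the higher library in 5 of 5 macrophage pairs and in 0 of 5 dendritic cell pairs. The stimuli that raised miR-34a-5p in macrophages did not go with more loop: its ratio to unstimulated cells was above 1 in 3 of 8 pairs. These values are a description, since loops were outside the table of mature arms that was tested.

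**Figure D4:**
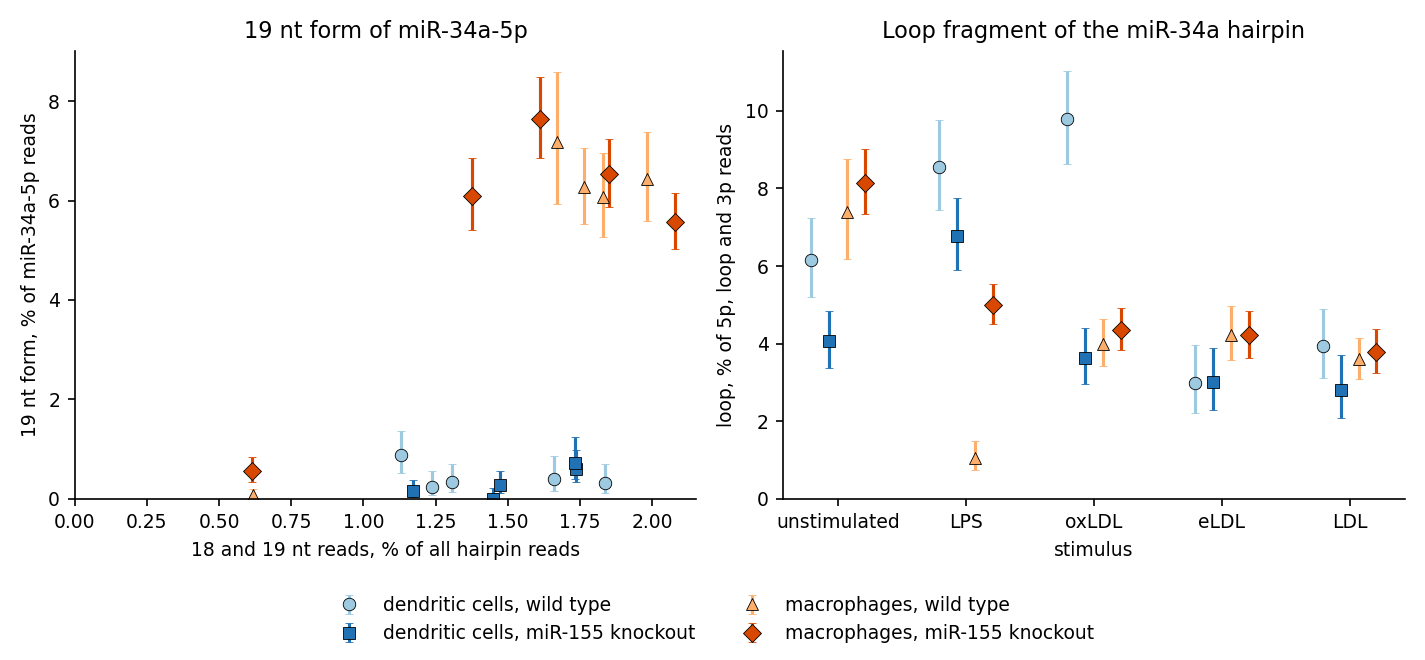
Left, the 19 nt form as a percentage of miR-34a-5p reads against the percentage of all hairpin reads that were 18 or 19 nt, 1 point per library; right, loop reads as a percentage of all 5p, loop and 3p reads of the miR-34a hairpin by stimulus; bars are exact 95% binomial intervals. On the left, 8 macrophage libraries lie at 5.56% to 7.64% and all dendritic cells under 1%, and on the right the lowest point is wild-type macrophages with LPS at 1.06%.

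Tags with added 3′ bases were counted only where they no longer matched a hairpin exactly. In the miR-34a hairpin a t follows the 22 nt form, so a U added to it was counted as the 23 nt form. The counted shares were lower on the members than over all arms, but this rule cannot tell whether fewer bases were added. Tags with up to 2 added A or U made 4.06% to 7.55% of miR-34a-5p reads in dendritic cells and 3.31% to 7.15% in macrophages, against 9.16% to 10.3% and 7.78% to 10.0% over all arms. On miR-34c-5p they made 0% to 6.98% and 0% to 2.16%.

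To place the members among other miRNAs, the arms of most similar pattern were listed by Pearson r of log2(CPM + 1), as a description without a test. Over the 10 macrophage libraries miR-34a-5p was most like miR-5107-3p (r = 0.96), miR-101b-3p (0.95) and miR-142-5p (0.94), and over all 20 libraries most like miR-187-5p (0.93), miR-383-5p (0.92) and miR-191-5p (0.92). Over the macrophage libraries miR-34c-5p was most like miR-30a-3p, miR-139-3p and miR-30a-5p, each at r = 0.95. Over all 20 libraries its nearest arm was miR-676-3p at r = 0.64.

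Other miRNAs that p53 is reported to induce or to help process form a list of 13 arms, of which 10 were tested. Among the 10 is miR-107-3p, which was counted as 1 arm with miR-103-3p, a miRNA not on the list. With LPS in macrophages, where miR-34a-5p rose, 1 of the 10 was higher, miR-22-3p (0.71), and 1 lower, miR-16-1-3p (-1.56), where 19.9% of all arms were called, and the list median was 0.24 against 0.02 over all arms. With lipoproteins 0 of 10 were called in either cell type, where 12.6% of all arms were called in macrophages and 0.806% in dendritic cells, with medians of 0.03 in macrophages and -0.0090 in dendritic cells against 0.03 over all arms in each. With LPS in dendritic cells 4 of 10 were higher and 0 lower, where 12.4% of all arms were higher: miR-22-3p (0.74), miR-192-5p (0.49), miR-141-3p (1.03) and miR-200c-3p (0.76), with a list median of 0.48. That direction rests on the scaling, since with total hairpin reads 0 were higher, 3 were lower and the list median was -0.01, against a shift of -0.47 in the median of all arms.

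In knockout macrophages 2 of the 10 p53-linked arms were higher, miR-194-5p (0.46) and miR-200c-3p (0.40), and miR-143-3p was lower (-4.04), against 24.5% of all arms called. With upper-quartile scaling 7 were higher and 1 lower, while the median of all arms shifted by 0.29. miR-143-3p, which is also the leading stromal marker above, was the only one of the 10 called in knockout dendritic cells (-4.21), where 9.68% of all arms were called; DESeq2 called 2 others higher. Between the cell types 5 were higher in macrophages and 1 lower, among them miR-194-5p (2.06), miR-200c-3p (2.07), miR-192-5p (1.67) and miR-22-3p (-0.73), with a list median of 0.61 against 0.07 over all arms. That is 6 of 10 called, where 80.1% of all arms were. With upper-quartile scaling the split was 4 and 4.

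The 6 miRNAs reported to repress Trp53 mRNA were all tested. In macrophages 0 of the 6 were higher and 2 lower with LPS, where 19.9% of all arms were called, with a list median of -0.49 against 0.02 over all arms; DESeq2 called 4 lower. The split was the same with lipoproteins, where 12.6% of all arms were called, with a median of -0.12 against 0.03. miR-125a-5p, which is processed from a cluster with miR-99b and let-7e, was lower in macrophages with LPS (-0.83) and lipoproteins (-0.995) and lower in knockout macrophages (-2.11). In dendritic cells it was higher with LPS (1.501) and with lipoproteins (0.86), the latter not called in 3 of 5 other settings. miR-33-5p, which lies within a gene for a sterol-regulated transcription factor, was lower with LPS in macrophages (-1.29) and dendritic cells (-1.16) and higher in knockout macrophages (0.57). miR-125b-5p was lower with lipoproteins in macrophages (-0.77) and, against dendritic cells, lower in macrophages by -7.75. In that cell type comparison 4 of the 6 were lower in macrophages and 2 higher, miR-504-5p (1.61) and miR-33-5p (1.12). It called 80.1% of all arms, and the list median was -0.52 against 0.07 over all arms. miR-504-5p was lower with LPS in dendritic cells (-1.16) and in knockout macrophages (-0.64). In dendritic cells 1 was higher and 2 lower with LPS (23.7% of all arms called) and 1 was higher with lipoproteins (0.806%). In knockout macrophages 1 was higher and 2 lower (24.5% of all arms called), but 0 and 1 without both short-read-poor libraries. In knockout dendritic cells 0 of 6 were called, by edgeR and by DESeq2, against 9.68% of all arms by edgeR.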

How the data were processed

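Small RNA from 20 mouse cultures was sequenced after Trizol extraction and TruSeq library construction, per the labels' protocols; per the submitters' processing notes the software was CASAVA 1.8.2, with no step given. The deposited values are raw read counts per unique sequence (18 to 45 nt); trimming and collapsing: not given in the sources used here.

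Sequences 18 to 26 nt long were aligned exactly to 1174 miRNA hairpins of GENCODE M21 (GRCm38), and tags that fit several arms were divided equally. Arms were anchored within 2 nt of the RefSeq mature start where one was listed, otherwise by the RNAfold 2.7.2 loop and the dominant 5′ end. Tags between 2 annotated arms, with 4 nt of slack, were set apart as loops. That split was chosen after the tags of the miR-34a hairpin were seen. miR-34c-5p and the miR-449b arms were placed by the fold.

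Counts were TMM-scaled with hairpin reads as library size and tested with robust quasi-likelihood F tests in edgeR 4.0.16 (R 4.3.3), with terms for culture and for stimulus within cell type, 8 residual degrees of freedom and Benjamini-Hochberg adjustment over all 372 arms; with 1 library per condition the spread is shared by all libraries. The SE was obtained from F and the log2 change. Exact permutation tests used SciPy 1.17.1. The matching and the fit were tested on simulated data. Arms with at least 5 CPM in fewer than 2 libraries were left out. Alternatives were DESeq2 1.42.0, other scalings, no filter, other tag rules, each cell type alone and each library left out in turn, with the scaling renewed or kept.

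Named arms are both members, the other miR-34 and miR-449 arms, 3 arms of highest likeness per member, and up to 4 called members of each list with the smallest p. The members and lists were chosen with earlier results of these data known.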

Additional observations from a re-analysis of the deposited data

Results flagged for a closer look

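A difference between the cell types was found for 5 responses by the test of the difference itself, each as macrophages minus dendritic cells on the log2 scale with edgeR's adjusted p. The knockout effect on miR-34c-5p differed by 2.27 (adjusted p = 1.6e-05), with a rise in knockout macrophages and a fall in knockout dendritic cells in 5 of 5 pairs each. The knockout effect on miR-34a-5p differed by 0.51 (adjusted p = 0.018), and its 5 dendritic cell pairs had ratios of 0.938 to 1.14. That call was kept in 5 of 29 alternatives, and the value was 0.26 without the wild-type LPS macrophages, or 0.42 with the scaling of all libraries kept. The LPS response of miR-34a-5p differed by 0.75 (adjusted p = 0.031) and its lipoprotein response by 0.72 (adjusted p = 0.026), calls that were lost in 6 and 8 of the 20 fits without 1 library. The LPS response of miR-449c-5p differed by 6.38 (adjusted p = 0.029), a value that is no bound, since it rests on 0 reads in both LPS dendritic cell libraries and depends on the prior count.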

How the results depend on the processing

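Values are log2 changes, with alternatives named by what they replace. Of 38 tested differences, 10 kept direction and side of the threshold in every alternative, and 885 of 1132 alternative values did so. Both knockout calls of miR-34c-5p, its knockout difference between cell types, the LPS and knockout calls of miR-34a-5p in macrophages and its cell type call are among the 10. No paired analysis was possible because the labels give no replicate numbers to use as a block; matching by stimulus is already part of the fit. The cause of the changes below was not tested, except where the scaling was kept.

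For miR-34a-5p, changes near 0 turned sign. The genotype difference in the LPS response was -0.00098, and 0.026 with DESeq2, 0.10 with added A or U, 0.16 without both short-read-poor libraries, 0.027 with loops added, 0.016 with the main 5′ end alone, 0.076 without filter, 0.18 with upper-quartile scaling and 0.080 with total reads. A term in macrophages alone, which sets LPS against all other states and so asks another question, gave 0.43. With lipoproteins in dendritic cells it was 0.01, and -0.0089 with the cell type alone, -0.011 with DESeq2, -0.016 with added bases, -0.030 without both libraries, -0.060 with the main 5′ end, -0.038 without filter, -0.0024 with 20 to 24 nt tags, -0.13 with upper-quartile scaling and -0.17 with total reads. With eLDL there it was 0.05, and -0.0031 with the cell type alone, -0.0061 without both libraries, -0.069 with the main 5′ end, -0.030 without filter, -0.0051 with 20 to 24 nt tags, -0.13 with upper-quartile scaling and -0.12 with total reads. With oxLDL there it was 0.06, and -0.016 with the cell type alone, -0.0029 with added bases, -0.0031 with the main 5′ end, -0.053 without filter, -0.14 with upper-quartile scaling and -0.20 with total reads. With total reads LPS in dendritic cells gave -0.36 against none and -0.19 against lipoproteins.

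The knockout difference of miR-34a-5p between cell types lost its call at 0.43 with added bases, 0.38 without both libraries, 0.38 with loops, 0.40 without filter and 0.41 with 20 to 24 nt tags. Its LPS difference lost the call at 0.66 without filter, and its lipoprotein difference at 0.88 without both libraries.

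For miR-34c-5p, LPS against lipoproteins in macrophages lost its call at -0.67 with the cell type alone, -0.65 with added bases, -0.63 without both libraries, -0.68 with loops, with the main 5′ end and with 20 to 24 nt tags, and -0.60 with upper-quartile scaling. The cell type difference lost its call at 0.26 with DESeq2, 0.24 with added bases, 0.25 without both libraries, 0.31 with loops, 0.24 with the main 5′ end, 0.26 without filter, 0.0058 with upper-quartile scaling and 0.22 with total reads. With LPS in dendritic cells it was -0.0020 with the main 5′ end and, with total reads, -0.36 against none and -0.22 against lipoproteins. With lipoproteins in dendritic cells it was -0.0079 without both libraries, -0.025 with the main 5′ end, -0.019 without filter, -0.11 with upper-quartile scaling and -0.15 with total reads. Without both libraries the genotype difference in the LPS response was -0.092, the lipoprotein difference between cell types -0.28, and the macrophage changes -0.28 with lipoproteins, -0.44 with LDL, -0.25 with eLDL and -0.16 with oxLDL.

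Leaving out each library in turn moved miR-34a-5p as follows. In macrophages it ran from 0.66 to 0.97 with lipoproteins, 0.67 to 0.98 with oxLDL, 0.50 to 1.005 with eLDL, 0.62 to 0.94 with LDL and -0.13 to 0.59 for LPS against lipoproteins. In dendritic cells it ran from -0.072 to 0.014 with lipoproteins, -0.090 to 0.060 with eLDL and -0.054 to 0.057 with oxLDL. The difference between cell types ran from 0.64 to 1.19 for LPS, 0.71 to 1.04 for lipoproteins and 0.26 to 0.50 for the knockout, and the genotype difference in the LPS response from -0.28 to 0.45.

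miR-34c-5p in macrophages ran from -1.08 to 0.050 with LPS, -1.35 to -0.11 for LPS against lipoproteins, -0.00080 to 0.53 with lipoproteins, -0.051 to 0.48 with oxLDL and -0.040 to 0.49 with eLDL. In dendritic cells it ran from -0.10 to 0.35 with LPS, -0.022 to 0.23 for LPS against lipoproteins, -0.24 to 0.28 with lipoproteins, -0.37 to 0.15 with oxLDL and -0.43 to 0.16 with LDL. Its cell type difference ran from 0.19 to 0.41, its lipoprotein difference between cell types from -0.018 to 0.57 and its genotype difference in the LPS response from -0.076 to 1.09.

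Leaving out a library also renews the TMM scaling. With the scaling factors and arms of the 20-library fit kept, an alternative added after the data were seen, the 15 called differences were fitted again. The knockout difference of miR-34a-5p ran from 0.42 to 0.60 and lost its call in 2 of 20 fits in place of 19, its LPS difference ran from 0.52 to 0.95 (6 lost), its lipoprotein difference from 0.59 to 0.86 (6) and its macrophage change with lipoproteins from 0.60 to 0.87 (1). miR-34c-5p ran from -1.30 to -0.35 for LPS against lipoproteins in macrophages (13 lost in place of 19) and from 0.20 to 0.39 between the cell types (11 in place of 15).

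Counts of called arms, higher and lower, moved too. With total reads, LPS in dendritic cells gave 26 and 123 in place of 46 and 42, LPS against lipoproteins there 28 and 98 in place of 49 and 45, the LPS difference between cell types 78 and 11 in place of 21 and 31, the lipoprotein difference 27 and 8 in place of 8 and 18, the knockout difference 43 and 25 in place of 25 and 31, knockout macrophages 62 and 40 in place of 43 and 48, and lipoproteins in macrophages 35 and 19 in place of 21 and 26. With upper-quartile scaling knockout macrophages gave 109 and 33, knockout dendritic cells 19 and 10 in place of 13 and 23 (DESeq2 31 and 19), the knockout difference 44 and 20, the LPS difference 22 and 16, the lipoprotein difference 12 and 15, LPS against lipoproteins in macrophages 38 and 12 in place of 30 and 29, and the cell types 120 and 170 in place of 157 and 141. Lipoproteins in dendritic cells called 3 arms, 7 with DESeq2 and 0 with upper-quartile scaling. The macrophage-only genotype term, which sets LPS against all other states, called 7 in place of 0. Lipoproteins in macrophages called 47 arms, 28 without both short-read-poor libraries and 11 without the unstimulated wild-type library.

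Single libraries moved other counts by more than 1.5 times. LPS in dendritic cells called 88 arms, 54 without the knockout LPS library, 48 without the wild-type LPS library and 54 without the unstimulated wild-type one, and LPS against lipoproteins there 94, or 47 without wild-type LPS. In macrophages LPS called 74, or 47 without knockout LPS, and LPS against lipoproteins 59, or 39 without knockout and 38 without wild-type LPS. In macrophages oxLDL called 38, eLDL 34 and LDL 30 arms; without the unstimulated wild-type library these were 16, 6 and 4, without the wild-type library of that lipoprotein 6, 1 and 5, and without the knockout one 22, 17 and 15. The LPS difference between cell types called 52, or 24 to 34 without the dendritic cell libraries of knockout LPS, wild-type LPS or unstimulated wild type, or the macrophage libraries of knockout LPS or unstimulated wild type. The lipoprotein difference called 26, or 8 to 15 without either unstimulated dendritic cell library, wild-type oxLDL of either cell type, or wild-type macrophages with LDL or unstimulated. Knockout dendritic cells called 36, or 15 to 18 without the wild-type eLDL or oxLDL or any but the LPS knockout library. The genotype difference in the LPS response called 1 arm without any 1 of the 4 LPS libraries, and lipoproteins in dendritic cells as few as 0.

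Counting error was small for miR-34a-5p, at 1509 to 6529 reads a library, and larger for miR-34c-5p, at 68 to 423.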
